A study of Rattus norvegicus with 24 samples.

Results

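Translation initiation factors (the Eif genes) and elongation factors (the Eef genes) bring ribosomes to mRNA and carry them along the coding sequence. They were followed here in the supraoptic nucleus of the rat, where large hypothalamic neurons make vasopressin and oxytocin. The genes were chosen by name alone: every probe set of the array with a single gene symbol that starts with Eif or Eef and a digit was taken, apart from the copy of the eIF2 gamma subunit gene on the Y chromosome. This gave 92 of 31099 probe sets, for 59 of the 14218 genes with such a probe set, and it also took in the kinases of eIF2 and the binding proteins of eIF4E, which restrain translation. Of the 92 probe sets, 83 passed the filter on low signal in females and 83, not all the same ones, in males. For the difference between females and males 82 passed. The brightest probe set of each of the 59 genes passed each time and stands for the gene below.

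Initiation starts when eIF4E holds the mRNA cap with the scaffold eIF4G and the helicase eIF4A. Meanwhile eIF2 brings the initiator tRNA to the small ribosomal subunit with the help of eIF1, eIF1A and eIF3. The 2 best known brakes act on these steps: eIF4E-binding proteins hold eIF4E when the kinase mTORC1 is inactive, and eIF2 kinases phosphorylate eIF2 under stress, which blocks its exchange factor eIF2B and favours translation of the transcription factor ATF4. Elongation then needs eEF1A, which delivers aminoacyl-tRNA, and eEF2, which moves the ribosome and is inhibited by its own kinase. Magnocellular neurons of the nucleus are secretory cells that raise hormone output when water is withheld.

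Each Affymetrix array held RNA of the supraoptic nucleus pooled from 5 Sprague Dawley rats. In the female set, 4 arrays of females deprived of water for 72 hours with free access to food were set against 4 arrays of euhydrated females; the age of the females is not given in the sources used here. In the male set, 5 arrays of males dehydrated for 3 days were set against 5 arrays of control males, all aged 10 to 12 weeks. Female RNA came from a Trizol extraction with Affymetrix labelling and male RNA from QIAzol and RNeasy with Ambion amplification, so sex, extraction, labelling and software cannot be told apart between the sets. The labels name no transgene or deletion, and the 5 arrays of lactating females were not analysed here. The design text lets the pools of a group stand as biological as well as technical replicates, so p-values measure the spread between pools.

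Array 5 of the dehydrated females was left out by the rule that chose the genes, since earlier results of these data had put its label in doubt. Its signal for the hormone genes of the nucleus was 50.6 for Avp and 26.0 for Oxt, against 3644 to 7666 and 3001 to 6698 on the other 8 female arrays. Of the 59 genes, 3 read above and 35 below the range of those 8 arrays, and 21 within it. Signals are in arbitrary units scaled to a trimmed mean of about 100 per array, with median signals of 39.7 to 45.7 in dehydrated and 43.1 to 46.5 in control females, and 36.1 to 38.3 in dehydrated and 38.9 to 40.4 in control males. The ratio of 3' to 5' GAPDH probe sets, a sign of RNA length, ran from 1.07 to 1.68 in dehydrated and from 1.02 to 4.12 in control females, where control female 2 was the highest. It ran from 2.72 to 3.89 in dehydrated and from 2.49 to 3.50 in control males. The same ratio for actin ran from 2.56 to 5.30 in dehydrated and from 2.44 to 13.3 in control females, again highest on control female 2, and from 6.83 to 8.998 in dehydrated and from 5.23 to 7.12 in control males. It was higher in most dehydrated males, and its part in the male results was not tested. Of 5 magnocellular neuron markers tested, 2 (Calb2 and Scg2) were higher after dehydration in each set, and Avp, the vasopressin gene, averaged 5106 ± 1738 in dehydrated and 3913 ± 277 in control females (SD, n = 4 each) and 5293 ± 653 in dehydrated and 4996 ± 583 in control males (SD, n = 5 each). In such bulk RNA, fewer cells of a type and less RNA per cell cannot be told apart.

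Promoter sequence was available from RefSeq for 54 of the 59 genes (build GRCr8), and Eef1d, Eif3h, Eif4b, Eif4e3 and Eif4ebp1 were not matched. The 250 bases before each start site were searched on both strands for 3 motifs whose factors are known regulators of growth and stress genes: the E-box CACGTG, the CCAAT box and TGATGNAA, the composite element of C/EBP and ATF factors. None of these motifs contains another. An E-box stood in 11 of the 54 promoters (20.4%), against 6.76% of 19005 protein-coding genes. A CCAAT box stood in 15 promoters (27.8%) against 36.9%, and the C/EBP-ATF element in 1, that of Eif2s2 (1.85%), against 3.16%. These shares are descriptions and were not matched for base composition. The promoters of 4 genes whose level changed are printed 5' to 3' on the strand of the gene, with the motif in capitals: CCAAT for Eef1e1, which was higher in both sets, and CACGTG for Eif4e, Eif5a and Eef2k, which were picked after their values and motifs had been seen.
Eef1e1, chr17:26353997-26354246, plus strand, 1 CCAAT beginning 73 bases before the start: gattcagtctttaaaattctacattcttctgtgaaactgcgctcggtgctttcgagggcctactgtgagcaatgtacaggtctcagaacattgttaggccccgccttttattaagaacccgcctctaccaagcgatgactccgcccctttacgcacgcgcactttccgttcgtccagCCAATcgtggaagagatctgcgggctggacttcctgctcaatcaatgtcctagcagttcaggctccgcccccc
Eif4e, chr2:229740503-229740752, plus strand, E-boxes beginning 237 and 80 bases before the start: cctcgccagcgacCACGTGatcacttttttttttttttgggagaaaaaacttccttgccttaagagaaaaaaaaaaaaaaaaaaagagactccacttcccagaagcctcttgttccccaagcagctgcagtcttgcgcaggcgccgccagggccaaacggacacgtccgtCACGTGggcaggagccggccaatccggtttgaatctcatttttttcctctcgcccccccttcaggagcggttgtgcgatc
Eif5a, chr10:55143222-55143471, minus strand, 1 E-box beginning 206 bases before the start: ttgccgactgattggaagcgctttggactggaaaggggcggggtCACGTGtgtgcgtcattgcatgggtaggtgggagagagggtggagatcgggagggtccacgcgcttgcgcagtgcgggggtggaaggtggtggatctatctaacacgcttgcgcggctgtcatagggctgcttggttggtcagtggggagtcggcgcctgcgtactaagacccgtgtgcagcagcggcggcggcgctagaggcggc
Eef2k, chr1:184824170-184824419, plus strand, 1 E-box beginning 77 bases before the start: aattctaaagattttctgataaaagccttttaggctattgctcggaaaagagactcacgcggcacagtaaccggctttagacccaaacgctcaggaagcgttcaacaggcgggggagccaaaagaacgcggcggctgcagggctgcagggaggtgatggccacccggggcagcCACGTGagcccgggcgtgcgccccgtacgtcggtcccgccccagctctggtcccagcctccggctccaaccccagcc
The start sites used for Eif4e and Eif5a lie inside the annotated span of the gene. Of the 21 genes that changed in males and had a promoter in the table, 5 held an E-box, against 11 of all 54 genes with a promoter. Of the 5, Eif1b, Eif3b, Eif4e and Eif5a were higher and Eef2k was lower in dehydrated males. A link between the motif and the change was not tested. A match is no evidence of binding.

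The male set asked which of these factors change with 3 days of dehydration. In dehydrated males 17 of the 59 genes were higher and 6 lower than in control males, by limma at an adjusted p under 0.05 over all probe sets kept. That is 39.0% of the genes, against 21.1% of all 11526 genes tested on the array, of which 11.1% were higher and 9.98% lower. Among genes read at least as brightly as the median translation factor, which are measured with less error, 36.2% of all genes and 17 of 30 translation factors (56.7%) passed. The median log2 fold change of the 59 genes was 0.06, against -0.02 for all genes. The changes were small, from -0.57 to 0.71 on the log2 scale, with a median SE of 0.07.

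The female set asked the same question after 72 hours. In dehydrated females 2 of the 59 genes were higher, Eif4e3 and Eef1e1, and 1 lower, Eif4b, than in control females by limma at the same threshold. That is 5.08% of the genes, against 3.83% of all 11507 genes tested, of which 2.27% were higher and 1.56% lower. Among genes read at least as brightly as the median translation factor, 2 of 30 translation factors passed (6.67%), against 5.85% of all genes. Unadjusted, 12 genes were higher (20.3%, against 9.07% of all genes) and 4 lower (6.78%, against 12.4%) at p under 0.05, and the median log2 fold change was 0.10, against -0.03 for all genes. The median SE was 0.13 in females. The 3 female calls were sensitive to single arrays: as each of the 8 was left out the count ran from 0 to 5, and it was 0 with array 5 of the dehydrated females put back.

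**Figure D1:**
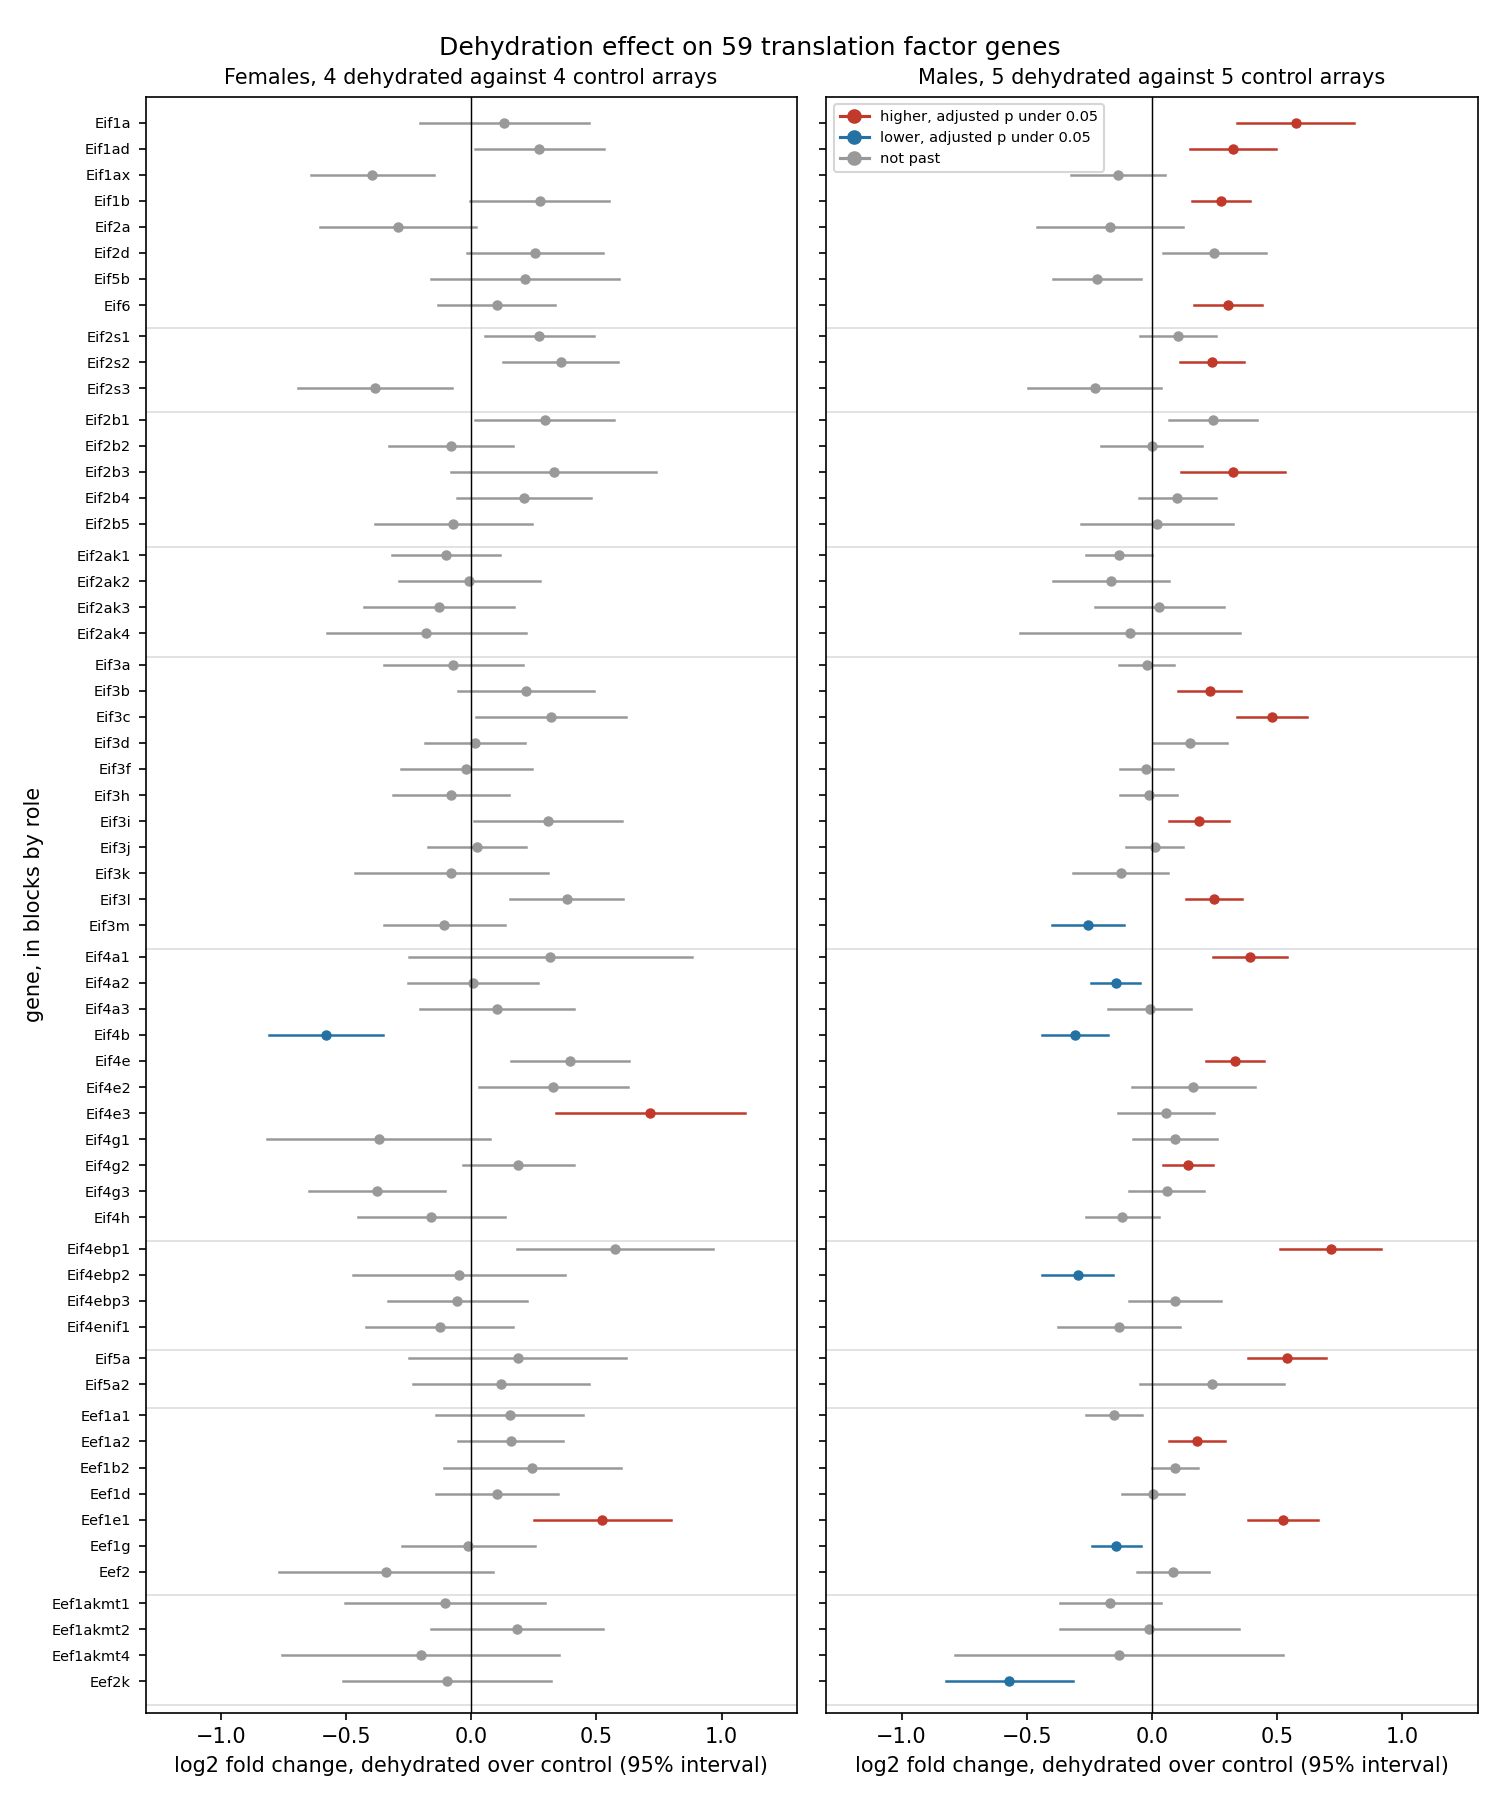
Log2 fold change of dehydrated over control arrays (x axis) for each of the 59 genes (y axis, in blocks by role), in females on the left and males on the right; points are the limma estimates, lines their 95% intervals, and colour shows an adjusted p under 0.05. In males 17 genes lie right of 0 and 6 left of 0 in colour, while the wider female intervals leave 3 genes in colour.

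Markers of other cells moved with dehydration in both sets. Of 10 mural cell and meninges markers, 9 were lower in dehydrated males, with a summed signal of 1648 to 3929 in dehydrated and 3035 to 6926 in control males. In females 3 of 10 were lower, with a summed signal of 1546 to 1891 in dehydrated and 2416 to 3242 in control females. Of 7 oligodendrocyte markers, 3 were lower in dehydrated females (summed signal 3075 to 5372, against 5549 to 7918 in control females) and 0 in males (5965 to 10213 in dehydrated, 6609 to 8479 in control males). Of 6 microglial markers, 4 were lower in dehydrated males, and 0 of 7 passed in females. Astrocyte markers were lower for 1 of 8 in females and 3 of 8 in males, blood markers for 1 of 2 in females and 2 of 2 in males, and ependyma and choroid plexus markers for 0 of 3 in females and 2 of 3 in males. Endothelial markers gave 0 calls among 7 in each set, and markers of other neurons 0 among 3. No marker was listed at 0 on the arrays used. With the mean of the mural and meningeal markers as a covariate, 8 of the male calls passed (7 higher and 1 lower) and 0 of the female calls. The 8 were Eef1e1, Eif3c, Eif3l, Eif4b, Eif4e, Eif4ebp1, Eif5a and Eif6, with Eif4ebp1 at 0.84 (adjusted p = 0.00230) and Eif4b at -0.41 (adjusted p = 0.00903) in limma. Of the 8, Eef1e1 was 0.38 with the covariate and 0.52 without it, and Eif4e 0.29 and 0.33, while the rest lay further from 0 with it. All 23 male and 3 female estimates kept their sign. Several male genes lost the call at a like size: Eif4a1 was 0.35 with the covariate (adjusted p = 0.0612) and 0.39 without it, and Eif1ad 0.35 (adjusted p = 0.117) and 0.32. Eif1a (limma adjusted p = 0.153) and Eef2k (adjusted p = 0.187) lost the male call under this alternative only. In females Eif4b was -0.86 with the covariate (adjusted p = 0.234) and -0.58 without it, while Eef1e1 was 0.32 and Eif4e3 0.33, against 0.52 and 0.72 without it. The summed marker signal did not overlap between the female groups, so covariate and dehydration can hardly be told apart there. The loss of the female calls under the covariate therefore decides nothing about them. The part of the other marker lists in the results was not tested.

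Among the cap-binding and helicase factors, 3 of 11 genes rose and 2 fell in males, and 1 rose and 1 fell in females. Of all genes tested, 11.1% rose and 9.98% fell in males, and 2.27% rose and 1.56% fell in females. No role group, here or below, was tested against these shares, and each holds few genes. Eif4e encodes the protein that grips the mRNA cap. Its signal was 565, 615, 561, 608 and 605 in dehydrated males, against 462, 467, 505, 444 and 465 in control males. It was 799, 720, 794 and 672 in dehydrated females, against 567, 495, 601 and 602 in control females. Every dehydrated array lay above every control array of its set. The log2 fold change was 0.33 ± 0.05 in males (SE; limma adjusted p = 9.1e-04) and 0.39 ± 0.11 in females, which missed the threshold (adjusted p = 0.0733). The 2 dimmer Eif4e probe sets gave -0.02 ± 0.19 and -0.05 ± 0.21 in females, and the 1 of them that was tested in males gave -0.11 ± 0.16.

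Eif4b, whose protein stimulates the eIF4A helicase and is a target of S6 kinase, fell in both sets. Its signal was 290, 296, 326 and 351 in dehydrated females, against 462, 521, 471 and 444 in control females. It was 394, 388, 388, 424 and 408 in dehydrated males, against 469, 496, 497, 467 and 563 in control males. All dehydrated arrays lay below all control arrays of their set. The log2 fold change was -0.58 ± 0.10 in females (SE; limma adjusted p = 0.0139) and -0.31 ± 0.06 in males (adjusted p = 0.00357). A second probe set gave -0.55 ± 0.15 in females (adjusted p = 0.0717) and -0.43 ± 0.19 in males (adjusted p = 0.140). The female call held in 12 of 18 alternative analyses.

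Eif4e3 encodes a relative of eIF4E that binds the cap in an atypical way. Its signal was 102, 113, 79.2 and 124 in dehydrated females, against 70.0, 67.2, 44.7 and 62.8 in control females, without overlap. It was 119, 109, 88.8, 117 and 97.3 in dehydrated males, against 96.4, 100.3, 103, 102 and 106 in control males, where the groups overlapped. The log2 fold change was 0.72 ± 0.17 in females (SE; limma adjusted p = 0.0482) and 0.06 ± 0.09 in males (adjusted p = 0.721). The difference between the sets was 0.66 ± 0.19 (adjusted p = 0.192), so no difference was called. The other probe set of the gene gave the reverse pattern of calls, with 0.25 ± 0.13 in females (adjusted p = 0.311) and 0.29 ± 0.09 in males (adjusted p = 0.0433).

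In males 1 helicase gene rose and 1 fell. Eif4a1, which encodes the common form of the helicase, had signals of 455, 504, 488, 535 and 547 in dehydrated males, against 374, 414, 352, 420 and 361 in control males. Eif4a2, its close relative, had signals of 2250, 2220, 2408, 2443 and 2299 in dehydrated males, against 2441, 2682, 2436, 2611 and 2687 in control males. For Eif4a1 the groups did not overlap, and for Eif4a2 they met at their edges. The log2 fold change was 0.39 ± 0.07 for Eif4a1 (SE; limma adjusted p = 0.00157) and -0.15 ± 0.05 for Eif4a2 (adjusted p = 0.0411). The Eif4a2 call was lost in 11 of 19 alternative analyses, among them centring on the median, with adjusted p from 0.0110 to 0.366. In females Eif4a1 gave 0.32 ± 0.26 (adjusted p = 0.548), with 760, 831, 842 and 568 in dehydrated and 749, 304, 704 and 774 in control females. The control value of 304 was on control female 2, and without that array the female estimate was 0.00 on the log2 scale. Eif4g2, a relative of eIF4G that supports cap-independent initiation, was higher in dehydrated males by 0.14 ± 0.05 (adjusted p = 0.0450). This call was lost in 13 of 19 alternative analyses, with limma adjusted p up to 0.369. A second Eif4g2 probe set separated the male groups, with all dehydrated arrays higher, and a much dimmer one did not.

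The probe sets of the scaffold gene Eif4g1 differed in females, which was noticed after their values were seen. The brightest probe set gave 210, 219, 201 and 201 in dehydrated females, against 299, 161, 381 and 287 in control females. These groups overlapped, with a log2 fold change of -0.37 ± 0.20 (SE; limma adjusted p = 0.355), and without control female 2 it was -0.61 (adjusted p = 0.0182). A dim probe set gave 38.2, 56.4, 67.0 and 32.3 in dehydrated females, against 14.6, 5.93, 11.4 and 11.5 in control females. These groups did not overlap, but the dim probe set passed the filter on low signal through the dehydrated arrays, so no fold change or test is given for it.

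**Figure D2:**
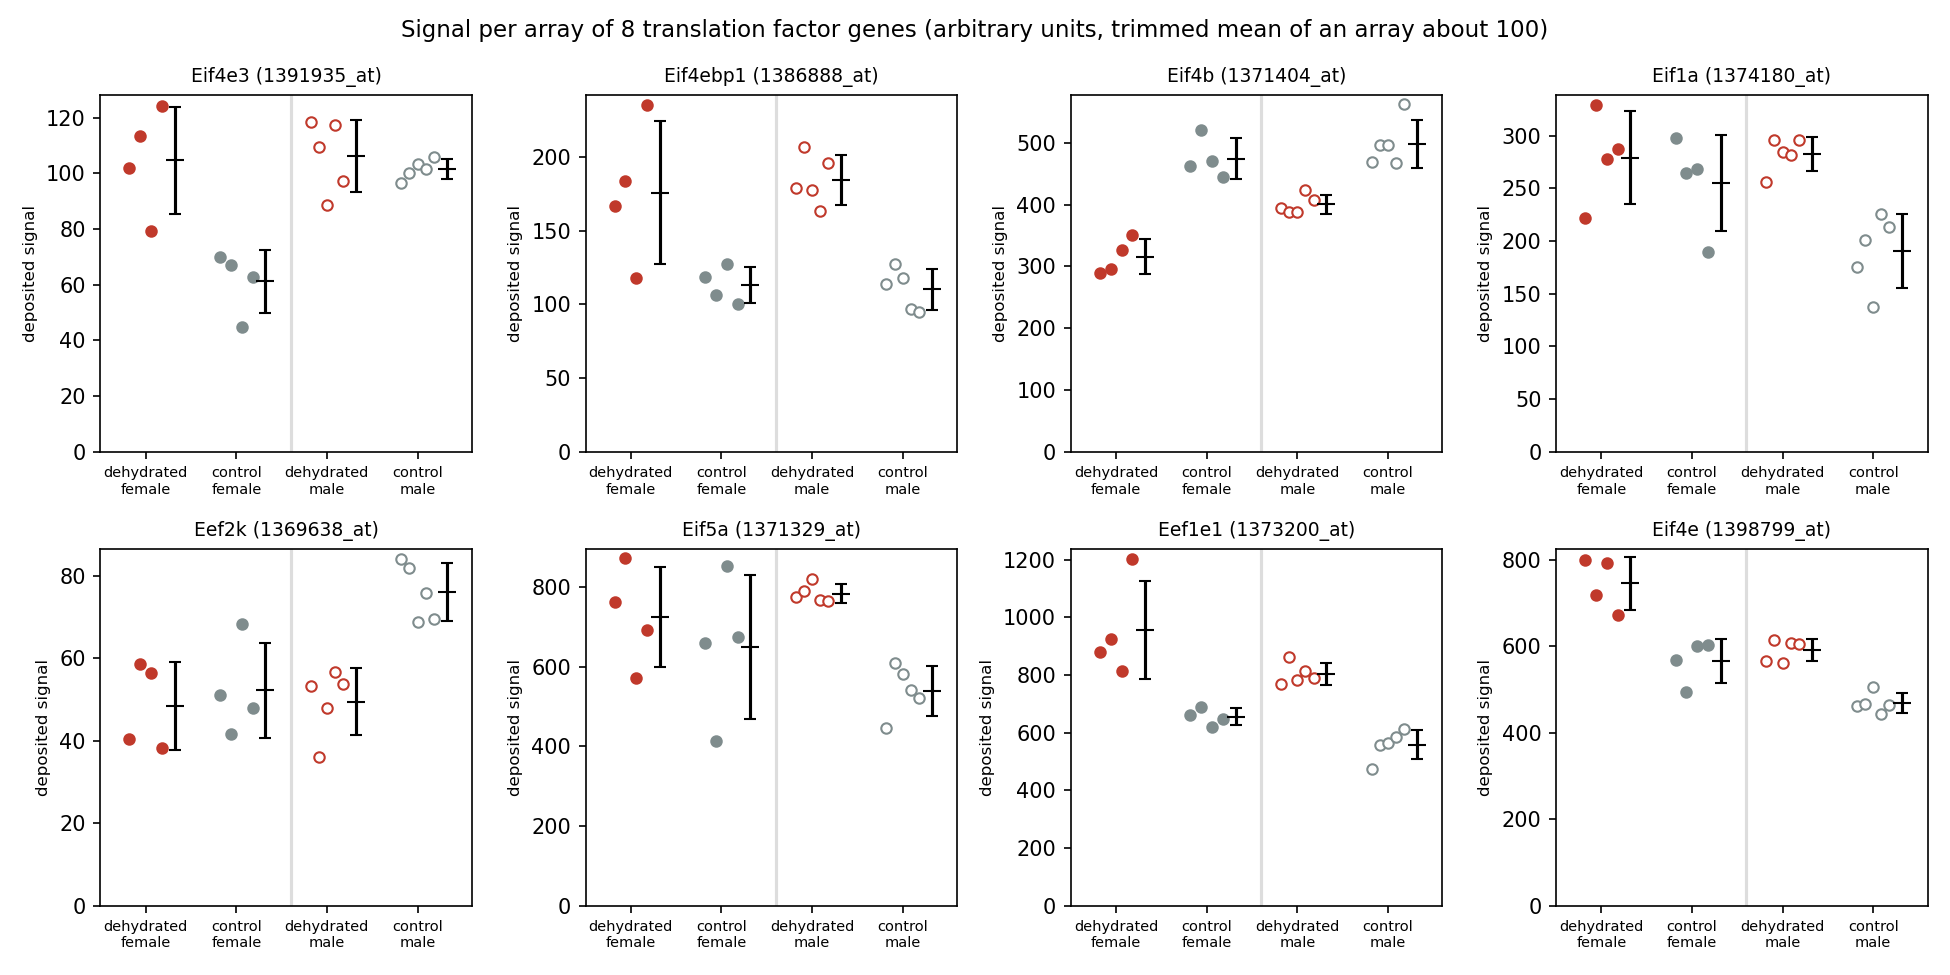
Deposited signal (y axis, arbitrary units, from 0) on each array for 8 genes, with filled points for females and open points for males, red for dehydrated and grey for control; bars give the mean and SD of a group. Eif4e, Eif4b and Eef1e1 separate dehydrated and control arrays in both sets, Eif4e3 only in females, and Eif4ebp1, Eif1a, Eef2k and Eif5a only in males.

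The binding proteins of eIF4E did not move together: 1 of 4 genes rose and 1 fell in males (11.1% and 9.98% of all genes), and 0 passed in females (3.83%). Eif4ebp1, the best studied of these repressors and a known target gene of ATF4, had signals of 179, 207, 177, 164 and 196 in dehydrated males, against 114, 128, 118, 97.0 and 94.9 in control males. It had 167, 184, 118 and 235 in dehydrated females, against 118, 106, 127 and 100.2 in control females. The male groups did not overlap, and in females 3 of the 4 dehydrated arrays lay above all controls. The log2 fold change was 0.71 ± 0.09 in males (SE; limma adjusted p = 1.6e-04), the largest of the 59 genes there, and 0.57 ± 0.18 in females (adjusted p = 0.109, 95% interval 0.18 to 0.96). Eif4ebp2, the form that predominates in brain, had 218, 198, 199, 205 and 184 in dehydrated males, against 255, 245, 265, 247 and 229 in control males. All dehydrated males lay below all control males (-0.30 ± 0.07, adjusted p = 0.00743), and in females the estimate was -0.05 ± 0.19 (adjusted p = 0.920).

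Among factors of start codon selection and subunit joining, 4 of 8 genes rose in males and 0 fell (11.1% and 9.98% of all genes). The 4 were Eif1a, Eif1ad, Eif1b and Eif6. Eif1a encodes a factor that opens the small subunit for scanning. Its brightest probe set gave 256, 296, 285, 282 and 296 in dehydrated males, against 175, 201, 137, 226 and 213 in control males. It gave 222, 329, 278 and 287 in dehydrated females, against 298, 265, 268 and 190 in control females. The male groups did not overlap and the female groups did, with log2 fold changes of 0.57 ± 0.11 in males (SE; limma adjusted p = 0.00264) and 0.13 ± 0.16 in females (adjusted p = 0.693). The 3 other Eif1a probe sets all passed in females, with 0.69 (adjusted p = 0.0263), 0.91 (adjusted p = 0.0379) and 0.72 (adjusted p = 0.0157). In males they gave 0.49 (adjusted p = 0.00509), 0.20 (adjusted p = 0.450) and 0.64 (adjusted p = 0.00421). The female result for Eif1a therefore turned on the probe set taken. Its relative Eif1ax had -0.39 ± 0.11 in females (adjusted p = 0.0841) and -0.14 ± 0.09 in males (adjusted p = 0.314), and cross-hybridisation between these copies was not tested.

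Eif6 encodes a factor that keeps the large ribosomal subunit from joining too early and is needed for its assembly. Its signal was 713, 677, 662, 665 and 658 in dehydrated males, against 607, 592, 517, 537 and 483 in control males. The groups did not overlap, and the log2 fold change was 0.30 ± 0.06 (SE; limma adjusted p = 0.00497). In females it was 0.10 ± 0.11 (adjusted p = 0.649). Eif1b, a copy of the start codon factor eIF1, was higher in dehydrated males by 0.28 ± 0.05 (adjusted p = 0.00322). Eif1ad, named for its eIF1A domain, was higher by 0.32 ± 0.08 (adjusted p = 0.0130).

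Of the 3 eIF2 subunit genes, 1 rose in males (11.1% of all genes) and 0 passed in females after adjustment (3.83%). All 3 had an unadjusted limma p under 0.05 in females, 2 higher and 1 lower (9.07% and 12.4% of all genes). Eif2s2, the beta subunit, was higher in dehydrated males (0.24 ± 0.06 on the log2 scale, SE; limma adjusted p = 0.0126). Its signal was 737, 759, 717, 760 and 697 in dehydrated males, against 643, 674, 544, 625 and 621 in control males, without overlap. In females Eif2s2 did not overlap either, with 750, 699, 648 and 817 in dehydrated and 548, 546, 553 and 618 in control arrays, but missed the threshold (0.36 ± 0.11, adjusted p = 0.0913). Eif2s1, the alpha subunit that the kinases phosphorylate, gave 0.27 ± 0.10 in females (adjusted p = 0.163) and 0.10 ± 0.07 in males (adjusted p = 0.341). Eif2s3, the gamma subunit that holds GTP, gave -0.38 ± 0.14 in females (adjusted p = 0.165) and -0.23 ± 0.12 in males (adjusted p = 0.230). Of the 5 eIF2B genes, Eif2b3, the gamma subunit of the catalytic part, passed in males (0.32 ± 0.10, adjusted p = 0.0333). None of the 4 kinase genes of eIF2 passed on its brightest probe set by limma in females or in males (3.83% and 21.1% of all genes). None of these kinase genes reached an unadjusted p under 0.05. Their 95% intervals reached from -0.58 to 0.27 in females and from -0.53 to 0.35 in males, and were widest for Eif2ak4, the amino acid sensor GCN2. For Eif2ak3, the kinase PERK of the endoplasmic reticulum, the estimate was -0.13 ± 0.14 in females and 0.03 ± 0.12 in males. A second probe set of Eif2ak1, the haem-regulated kinase, was lower in dehydrated males (-0.25 ± 0.07, adjusted p = 0.0264).

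Of 11 subunit genes of eIF3, the large scaffold on the small ribosomal subunit, 4 rose and 1 fell in males (11.1% and 9.98% of all genes). In females 0 passed (3.83% of all genes). Eif3c had signals of 661, 630, 721, 624 and 768 in dehydrated males, against 494, 508, 491, 450.1 and 483 in control males, without overlap. Its log2 fold change was 0.48 ± 0.06 (SE; limma adjusted p = 1.9e-04), and 0.32 ± 0.14 in females (adjusted p = 0.233). A much dimmer second probe set of Eif3c gave -0.04 ± 0.10 in males (adjusted p = 0.848) and 0.12 ± 0.27 in females (adjusted p = 0.848). Eif3l had 763, 710, 695, 685 and 727 in dehydrated males, against 615, 605, 625, 556 and 614 in control males. It was above all controls in females too, with 666, 718, 716 and 585 in dehydrated and 501, 489, 507 and 553 in control arrays. The log2 fold change of Eif3l was 0.25 ± 0.05 in males (adjusted p = 0.00518) and 0.38 ± 0.10 in females (adjusted p = 0.0717). Eif3b and Eif3i were higher in males by 0.23 ± 0.06 and 0.19 ± 0.06, while Eif3m was lower (-0.26 ± 0.07, adjusted p = 0.0170) with overlapping groups. By these estimates the subunits of the complex did not change as a block. The Eif3i call was lost in 11 of 19 alternative analyses. The Eif3m call was lost in 3 of 19, among them centring on the median, though its sign held in all.

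Eif5a encodes the factor that helps ribosomes past difficult stretches such as proline runs and carries the modified amino acid hypusine. Its signal was 774, 791, 820, 766 and 764 in dehydrated males, against 445, 608, 582, 541 and 522 in control males. It was 762, 873, 572 and 692 in dehydrated females, against 658, 413, 852 and 675 in control females. The males separated and the females overlapped, with log2 fold changes of 0.54 ± 0.07 in males (SE; limma adjusted p = 1.8e-04) and 0.19 ± 0.20 in females (adjusted p = 0.658). The female control at 413 was again control female 2, and without it the estimate was -0.01. For Eif5a2, the paralog, the brightest probe set gave 0.24 ± 0.13 in males (adjusted p = 0.241) with overlapping groups, and a second one 0.43 ± 0.09 (adjusted p = 0.00336).

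Of 7 eEF1 and eEF2 genes, 2 rose and 1 fell in males (11.1% and 9.98% of all genes) and 1 rose in females (2.27%). Eef1e1 has an elongation factor name, but its product is known as AIMP3, a scaffold of the complex of aminoacyl-tRNA synthetases. Its signal was 880, 926, 814 and 1202 in dehydrated females, against 663, 690, 621 and 649 in control females. It was 768, 863, 782, 814 and 791 in dehydrated males, against 475, 559, 563, 585 and 611 in control males. Both sets separated without overlap, and the log2 fold change was 0.52 ± 0.13 in females (SE; limma adjusted p = 0.0468) and 0.52 ± 0.07 in males (adjusted p = 9.8e-05). The female call held in 7 of 18 alternative analyses. Eef1a2, the eEF1A form of neurons and muscle, was higher in dehydrated males by 0.18 ± 0.05 (adjusted p = 0.0304), while Eef1a1, the widespread form, gave -0.15 ± 0.05 (adjusted p = 0.0594). Eef1g, a subunit of the exchange factor of eEF1A, was lower (-0.14 ± 0.05, adjusted p = 0.0435), a call lost in 12 of 19 alternative analyses. Eef2 itself had 0.08 ± 0.07 in males and -0.34 ± 0.20 in females, where it read -0.55 (adjusted p = 0.0478) without control female 2.

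Eef2k encodes the kinase that inhibits eEF2. Its signal was 53.2, 36.0, 48.0, 56.7 and 53.7 in dehydrated males, against 84.2, 81.9, 68.8, 75.8 and 69.5 in control males. It was 40.3, 58.7, 56.5 and 38.3 in dehydrated females, against 51.0, 41.5, 68.4 and 48.0 in control females. Every dehydrated male lay below every control male (-0.57 ± 0.12, SE; limma adjusted p = 0.00456), while the females overlapped (-0.10 ± 0.19, adjusted p = 0.827). The difference between the sets was 0.47 ± 0.22 (adjusted p = 0.473). The next brightest Eef2k probe set gave -0.20 ± 0.14 in males (limma adjusted p = 0.348) and 0.34 ± 0.38 in females (adjusted p = 0.680). A much dimmer probe set gave -0.68 ± 0.24 in males (adjusted p = 0.0682) and was not tested in females. The male groups overlapped for both, so the male call for Eef2k came from the brightest probe set only. The last Eef2k probe set was tested in neither set. The 3 methyltransferase genes of eEF1A did not pass in either set.

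Whether dehydration acts differently in the 2 sets was tested as a difference of the log2 fold changes, each set with its own controls. By limma 0 of the 59 genes passed, while unadjusted p-values under 0.05 came to 4 higher and 4 lower (6.78% each, against 3.77% and 5.68% of all genes), and over the array 3 of 11519 genes passed (0.0260%). The sign was shared by 48 of the 59 genes (81.4%), against 71.2% of all genes. Of the 23 genes called in males, 22 had the same sign in females (95.7%), against 91.3% of all genes called in males. Only Eef1e1 and Eif4b passed in both sets in the same direction. Across the 59 genes the log2 fold changes of the sets had a Pearson r of 0.651 and a Spearman rho of 0.712, against 0.637 and 0.571 for all genes. The genes of a set share arrays and are not independent, and the fewer female calls go with a median SE of 0.13, against 0.07 in males.

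**Figure D3:**
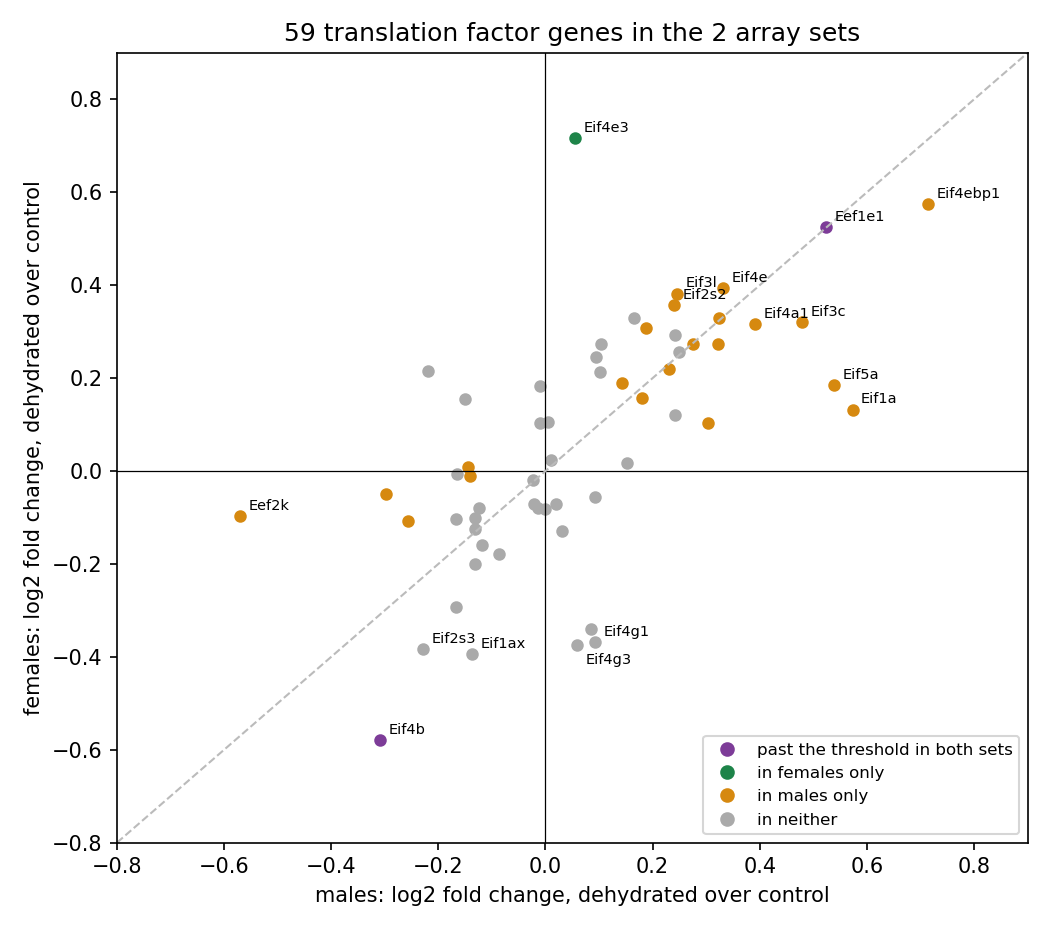
Log2 fold change of dehydrated over control in males (x axis) and in females (y axis) for the 59 genes, coloured by the set in which the adjusted p was under 0.05; the dashed line marks equal change. Eef1e1 lies on the line at 0.52 in both sets, and Eif4e3 lies far above it, at 0.72 in females and 0.06 in males.

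Other genes of the translation pathway were read from lists for comparison. In the integrated stress response around eIF2, 3 of 11 genes were higher in females and 5 of 11 in males (2.27% and 11.1% of all genes). None was lower, and the median log2 fold changes were 0.36 and 0.34. Atf4, whose mRNA is favoured when eIF2 is phosphorylated, averaged 1444 ± 104 in dehydrated and 694 ± 173 in control females (SD, n = 4 each) and 1558 ± 69.4 in dehydrated and 732 ± 48.6 in control males (SD, n = 5 each). Its log2 fold change was 1.09 ± 0.18 in females (SE; limma adjusted p = 0.00863) and 1.08 ± 0.06 in males (adjusted p = 1.8e-08). Ddit3, the stress factor CHOP, gave 0.70 ± 0.16 in females (adjusted p = 0.0400) and 0.64 ± 0.07 in males (adjusted p = 2.5e-05). Dnajc3, an inhibitor of eIF2 kinases, gave 0.63 ± 0.11 in females (adjusted p = 0.0116) and 0.34 ± 0.07 in males (adjusted p = 0.00390).

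Cytosolic aminoacyl-tRNA synthetases, which charge tRNAs with amino acids, and their scaffolds were higher for 7 of 21 genes in females and 16 of 21 in males. Of all genes, 2.27% were higher in females and 11.1% in males. No gene of this list was lower, and the medians were 0.36 and 0.40. Cars1, for cysteine, gave 0.85 ± 0.11 in females (SE; limma adjusted p = 0.00215) and 0.67 ± 0.08 in males (adjusted p = 4.2e-05). Gars1, for glycine, gave 0.58 ± 0.11 (adjusted p = 0.0199) in females and 0.70 ± 0.06 (adjusted p = 2.9e-06) in males. Sars1, for serine, gave 0.57 ± 0.11 (adjusted p = 0.0203) in females and 0.66 ± 0.07 (adjusted p = 1.5e-05) in males. The product of Eef1e1, described above, is known as a scaffold of a complex of some of these synthetases. Which of the genes named here belong to that complex was not examined.

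Genes of mTORC1 and cap-dependent control gave 0 calls among 18 in females, where 3.83% of all genes passed, and 2 higher and 1 lower in males, where 21.1% of all genes passed, with medians of -0.05 in females and -0.07 in males. Akt1s1, an inhibitor subunit of mTORC1, rose by 0.32 ± 0.07 (SE; limma adjusted p = 0.00769), Larp1, a cap-binding repressor of ribosomal protein mRNAs, by 0.16 ± 0.05 (adjusted p = 0.0384), and the S6 kinase gene Rps6kb1 gave -0.38 ± 0.09 (adjusted p = 0.00770). Of 15 genes of poly(A) binding, termination and recycling, 6 rose in males and 0 passed in females. Of all genes, 11.1% rose in males. Among genes at least as bright as the median of the 59 factors, 36.2% passed there in either direction. The list was led by Pelo, a ribosome rescue factor, at 0.57 ± 0.08 (limma adjusted p = 2.7e-04). Pabpc4, a poly(A)-binding protein, gave 0.30 ± 0.08 (adjusted p = 0.0220), and Bzw2, an eIF5 mimic, 0.29 ± 0.08 (adjusted p = 0.0264). Mitochondrial translation factors gave 0 calls among 7 genes in females and 8 in males, with medians of 0.04 in females and -0.02 in males.

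**Figure D4:**
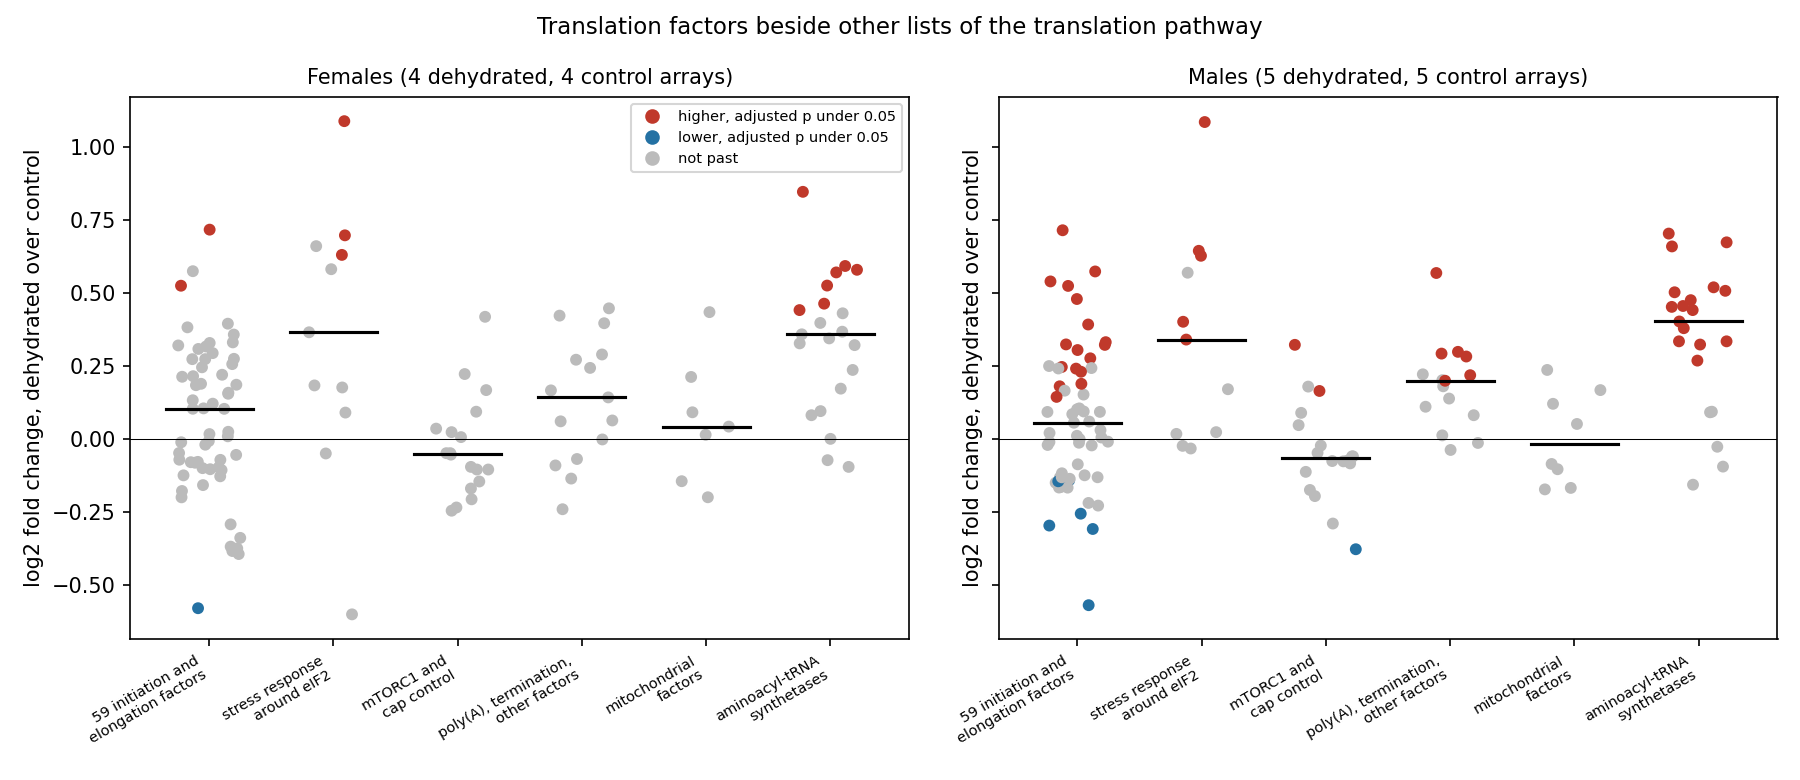
Log2 fold change of dehydrated over control (y axis) for the 59 initiation and elongation factors and 5 lists of other translation genes (x axis), females on the left and males on the right; each point is a gene, colour shows an adjusted p under 0.05, and black lines are medians. The medians of the stress response list (0.36 in females, 0.34 in males) and the aminoacyl-tRNA synthetases (0.36 and 0.40) stand above those of the 59 factors (0.10 and 0.06).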

How the data were processed

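The authors deposited intensity signals per probe set of an Affymetrix rat array, made with GCOS 1.2 for males and with MAS5 for females per the submitters' processing notes; background and summary settings are not given in the sources used here. Arrays were brought to a common 2% trimmed mean of 500 before 32 was added and log2 taken, so fold changes of dim genes are understated. After removal of 57 control probe sets, 21729 of 31042 probe sets with a mean log2 value above the 30th percentile were kept in each fit.

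Tests used lmFit and trended eBayes of limma 3.58.1 (R 4.3.3), adjusted by Benjamini-Hochberg over every probe set kept, with a threshold of 0.05, in females (4 against 4 arrays), in males (5 against 5) and for the difference between the sets. The fit was tested on simulated data. Precision is limited by the number of arrays. The probe set brightest on average over the 18 arrays stood for its gene, and 5 probe sets with several symbols were left out. Symbols came from the platform annotation and were checked against RefSeq by Entrez ID. Levels in the text are deposited signals.

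Array values are given for genes past the threshold in females, or in males with an absolute log2 fold change of at least 0.5, with others added where a role group or a single array made them useful; from the pathway lists up to 3 rising and 3 falling genes are named. The genes, role groups, lists and motifs were chosen with earlier results of these data known. Alternatives were scaling, the value added before log2, the filter, the trend, leaving out each array, 1 fit for 4 groups, the left-out array, all probe sets, a marker covariate and a block by title digit. The 5 lactating samples had empty columns and were not analysed here. Figures were drawn with Python 3.11.15 and matplotlib 3.10.9.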

Additional observations from a re-analysis of the deposited data

Results flagged for a closer look

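On the array labelled dehydrated female 5, which no comparison used, 38 of the 59 genes lay outside the range of the other 8 female arrays. A single array stood far from the rest of its group in 6 of 96 gene and group combinations over the genes called in either set, and chance gives about 1 in 20. In dehydrated females, dehydrated female 4 was lowest for Eif2b3 at 87.3. Among control females, control female 2 was lowest for Eif3c at 397 and for Eif4a1 at 304, and control female 4 was highest for Eif2s2 at 618. Among control males, control male 2 was lowest for Eif2b3 at 54.2 and control male 4 lowest for Eif3l at 556. Of 5 probe sets annotated with an Eif or Eef symbol and a further one, which were not used above, that of Eif3e and its copy Eif3el1 was lower in dehydrated males (log2 fold change -0.157, limma adjusted p = 0.0243) and that of Eif5 and its pseudogene Eif5-ps1 higher (0.269, adjusted p = 0.00182).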

How the results depend on the processing

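No paired analysis was possible in females because the titles of the dehydrated arrays carry no replicate numbers. The male titles are codes whose last digit recurs in both groups: with that digit as a replicate block, an alternative added after seeing the data, 17 genes passed (13 higher, 4 lower), and same-digit arrays had deviations correlated at -0.12 to 0.14, with 1 of 5 correlating best with its own digit, so the digits were not taken as pairs. The female count of 3 was 1 with arrays centred on their median, 1 with no filter and 1 without the mean-variance trend. It was 10 in 1 fit with all 4 groups (7 higher, 3 lower), and 0 with the left-out array or with the marker covariate. Over all probe sets of the genes it was 7, or 8.43%, against 2.96% of all probe sets tested (6 of the 7 higher, 1 lower). The higher ones include the dim Eif4g1 probe set, which passed the filter through the dehydrated arrays, so its call is no support. Leaving out arrays gave 0 to 5: 0 without dehydrated female 1 or 2, 1 without dehydrated female 4, 4 without dehydrated female 3, 1 without control female 1 or 4, 5 without control female 2 and 0 without control female 3. The male count of 23 was 14 in 1 fit with all 4 groups (11 higher, 3 lower) and 8 with the marker covariate, and 18 to 24 as arrays were left out. Centring on the median split the male calls into 21 higher and 3 lower, against 17 and 6 in the main analysis. In males 8 of the 23 genes passed under all 19 alternatives other than the block: Eef1e1, Eif3c, Eif3l, Eif4b, Eif4e, Eif4ebp1, Eif5a and Eif6. The difference between the sets gave 0 under the alternatives run, apart from 1 gene without control female 2 (range 0 to 1 as arrays were left out). With centring on the median the poly(A), termination and recycling list gave 11 male calls in place of 6 and the mitochondrial list 1 in place of 0. No called gene changed sign. The cause of these shifts was not tested. For the other alternatives the share of all genes that passed is not given here. The shifts therefore cannot be read as particular to the translation factors. The number of arrays and the dimness of some probe sets limit what can be called.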
